A study of Mus musculus with 26 samples.

Results

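Cholesterol synthesis and its SREBP control were followed through 8 genes of the 35944 genes with a transcript in the deposited files. They are Hmgcs1, Sqle, Idi1, Fdps, Lss, Cyp51, Insig1 and Srebf2, and they were chosen by name, not by a measured value. All 8 passed the count filter. The study sequenced RNA from TCR Tg101 cells, CD8+ T cells that carry a single transgenic T cell receptor against an antigen of C1498, a mouse leukemia line. The cells came from Tg101 mice on a Rag2-/- background, so they are a single clone. By the study's methods they were dye-labelled and transferred by vein into B6.SJL or C57BL/6 hosts, leukemia-bearing hosts received C1498 cells by vein a day later, and the T cells were recovered by sorting from spleen or liver. The labels give every sample as strain C57BL/6, wild type and 6 weeks old.

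The control group held 3 libraries of spleen cells without leukemia, of which 2 were naive cells of day 0 and 1 came from leukemia-free hosts at day 18. A single library of day 18 held undivided cells from the spleen of leukemia-bearing mice, sorted for undiluted CellTrace Violet, a dye that is diluted at each division. Spleen cells of leukemia-bearing mice gave 2 libraries of day 7, called early, and 1 library of day 14, called mid. Liver cells of leukemia-bearing mice gave 2 early libraries of day 7, 3 mid libraries of days 13 and 14, and 2 late libraries of days 16 and 18. One more library of naive cells was made by oligo-dT priming and entered no comparison. The labels do not say whether libraries of a group came from separate animals, so the p-values measure the spread between these samples only. All control cells came from spleen, so liver, leukemia and time in the host cannot be told apart in a comparison of liver with control. The labels call the day 0 cells naive Tg101 and do not say whether they were transferred, so transfer may differ as well.

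Cells make cholesterol from acetyl-CoA through the mevalonate pathway, and its enzymes are switched on together by the transcription factor SREBP2. When sterols are plentiful, INSIG proteins hold the SREBP escort protein SCAP in the endoplasmic reticulum, and when sterols run low, SCAP carries SREBP to the Golgi, where proteases release its active part. T cells that leave the resting state are known to raise sterol and fatty acid synthesis to build new membrane.

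SREBP2 acts through sterol response elements, often beside CCAAT boxes bound by NF-Y, so the stretch before the start site is shown for the 3 members whose levels were lower in late liver and for Cyp51, which was higher there. The sequences are from RefSeq on GRCm38.p6 and read 5′ to 3′ on the gene's strand, upstream of both the RefSeq and the GENCODE start. Capitals mark matches on either strand to TCACNNCA, which includes the sterol response letters TCACNCCA, and to CCAAT or the E-box CACGTG. The Cyp51 stretch ends before its only CCAAT, which began 29 bases before the RefSeq start.
Hmgcs1, chr13:119690101-119690350, plus strand: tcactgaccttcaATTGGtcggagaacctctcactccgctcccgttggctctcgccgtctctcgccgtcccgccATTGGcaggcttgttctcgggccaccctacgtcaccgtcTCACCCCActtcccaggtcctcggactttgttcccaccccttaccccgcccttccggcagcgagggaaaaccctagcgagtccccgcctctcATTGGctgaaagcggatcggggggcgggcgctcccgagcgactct
Srebf2, chr15:82147019-82147180, plus strand: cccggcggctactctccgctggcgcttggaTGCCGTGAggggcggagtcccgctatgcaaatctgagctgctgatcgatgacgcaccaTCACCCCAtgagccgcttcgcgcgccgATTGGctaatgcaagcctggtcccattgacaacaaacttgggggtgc
Insig1, chr5:28071162-28071362, plus strand: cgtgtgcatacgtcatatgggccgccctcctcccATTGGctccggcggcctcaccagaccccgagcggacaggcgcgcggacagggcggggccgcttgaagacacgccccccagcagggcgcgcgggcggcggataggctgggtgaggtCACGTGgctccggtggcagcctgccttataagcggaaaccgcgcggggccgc
Cyp51, chr5:4104747-4104947, minus strand: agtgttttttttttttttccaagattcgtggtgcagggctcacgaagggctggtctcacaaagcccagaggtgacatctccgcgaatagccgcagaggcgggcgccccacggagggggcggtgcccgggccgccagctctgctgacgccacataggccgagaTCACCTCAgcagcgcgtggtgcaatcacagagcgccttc

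RefSeq entries were matched for 6 members, all but Fdps and Sqle, and the letters were searched on both strands in the 250 bases before each start. TCACNCCA lay in 2 of these 6, Hmgcs1 and Srebf2, and in 3.65% of 32536 distinct promoters of the same length. In Hmgcs1 it began 137 bases before the start, and in Srebf2 162 bases before it. The wider letters TCACNNCA, which overlap every such match, lay in 3 of 6, with Cyp51 added, against 11.42% of all promoters. CCAAT lay in 6 of 6 against 33.81%, and the GC box GGGCGG in 6 of 6 against 32.97%. CACGTG lay in Insig1 alone among the 6, against 6.04%. A match describes letters and does not show that a factor bound there.

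Depth was 22918996 to 71358287 estimated counts per library over the 14 libraries compared, and the least covered member, Idi1, still had 471 estimated counts in its lowest library. The T cell markers (7 genes, including Cd3e and Cd8a) were all present in every library, summing to 3872 to 8954 CPM (counts scaled to a common library size with TMM). The sample titles fall in 2 series, here called TG and XC and taken as sequencing batches. The TG libraries are control 1, mid liver 1 and late liver 1. Both TG liver libraries were low in long transcripts. Among genes in the longest of 5 equal length classes (over 4117 bases) the median log2 difference from the controls was -0.75 in mid liver 1 and -0.93 in late liver 1. In the other 3 mid and late liver libraries it was -0.15 to -0.29, and in the shortest class it was 0.86, 0.98 and 0.05 to 0.21 in the same order. The members in mid and late liver against control were therefore also fitted with this trend with length equalised between libraries.

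**Figure D1:**
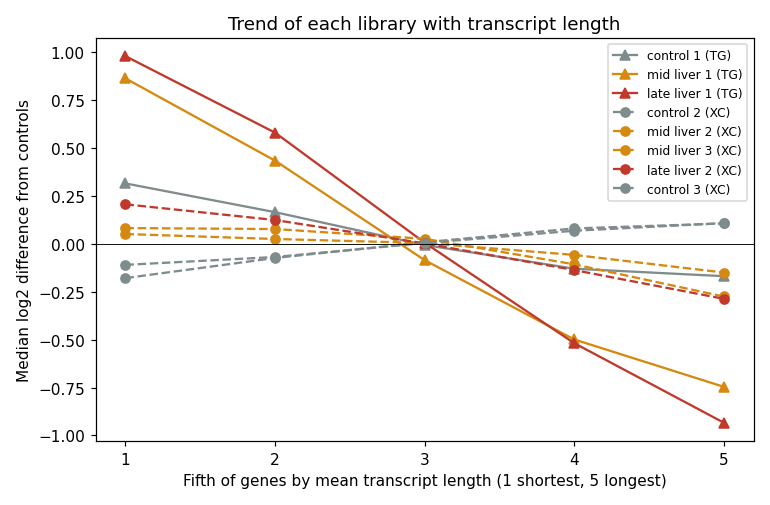
Trend of each library with transcript length: the x axis gives 5 equal classes of 15465 genes by mean transcript length, the y axis the median log2 difference from the mean of the 3 controls, one line per control, mid liver and late liver library. The lines of mid liver 1 and late liver 1 (triangles, solid, TG series) run from 0.86 and 0.98 in the shortest class to -0.75 and -0.93 in the longest.

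Liver RNA and other cells were followed by marker lists. The 20 hepatocyte genes summed to 2.01, 22.3 and 319.9 CPM in controls 3, 2 and 1, of which transferrin (Trf) made 0.747, 21.9 and 319.0 CPM. The other 19 summed to 0.449 to 1.27 CPM in the controls, and they summed to 347, 40.1 and 6.17 CPM in mid liver 1, 2 and 3 and to 618 and 166 CPM in late liver 1 and 2. Albumin (Alb) was 0 to 0.0325 CPM in the controls, 85.9, 8.49 and 0.913 CPM in the mid and 132 and 24.4 CPM in the late liver libraries. The macrophage list of 10 genes summed to 1229, 170 and 11.5 CPM in control 1, 2 and 3 and to at most 76.6 CPM in the other 11 libraries compared. The erythroid list, 4 globin genes and Alas2, summed to 5220 and 20346 CPM in the day 0 controls and to at most 214.9 CPM in the other libraries compared. Beyond the comparisons without these libraries given below, the part of such RNA in the members' values was not tested. In bulk RNA, fewer cells of a kind and less RNA per cell cannot be told apart.

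Against control, the 8 members did not move as a block in mid and late liver. Hmgcs1, Insig1 and Srebf2 were lower, by 0.55 to 0.83 on the log2 scale over mid and late liver together, and these were the only members past the threshold. Cyp51, Idi1, Sqle, Lss and Fdps had positive differences of 0.26 to 0.86, none of which passed. In late liver 2 of 8 members were called by edgeR, both lower, where 37.5% of 14616 genes were called, 17.7% lower and 19.8% higher. In mid liver 2 of 8 were called, both lower, against 31.2% of genes, 13.9% lower and 17.3% higher. Over mid and late liver 3 of 8 were called, all lower, against 47.3% of genes, 23.8% lower and 23.5% higher. The share of members called (2 of 8, 2 of 8 and 3 of 8) was below that of all genes in each comparison. Control 1, the only TG control, weighed heavily: without it 0.0423% of all genes was called over mid and late liver, and none of the members. The median log2 fold change of the members was 0.27, with -0.05 over all genes tested.

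**Figure D2:**
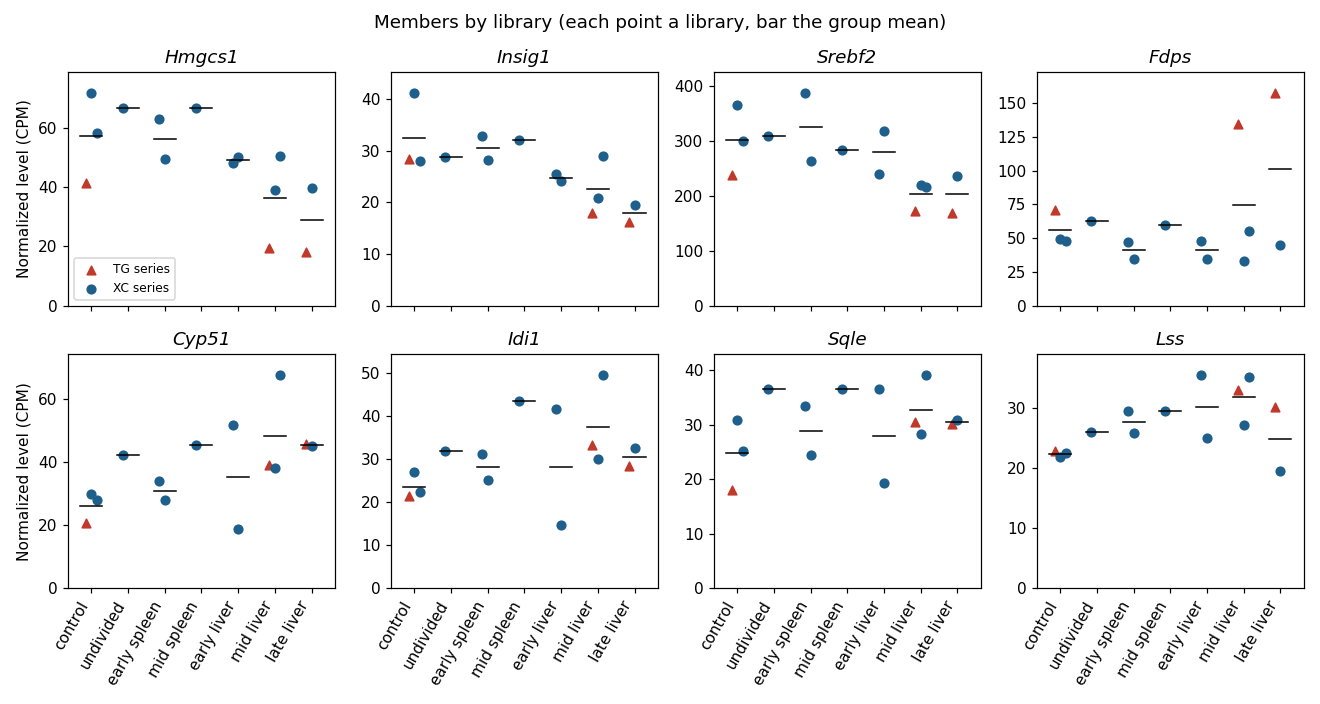
Level of each member (y axis, CPM) in each of the 14 libraries, grouped along the x axis. Triangles are the TG and circles the XC series, and bars are group means. Both late liver libraries lie below all 3 controls for Hmgcs1, Insig1 and Srebf2 and above them for Cyp51 and Idi1. The share of all genes that separate in this way was not counted.

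Srebf2 encodes SREBP2, the transcription factor that drives the pathway. It lies on GRCm38 chr15:82147181-82205379, plus strand. Its level was 238, 365 and 299 CPM in the controls (mean 300.7 ± 63.2, SD, n = 3), 172, 220 and 217 CPM in mid liver and 169 and 236 CPM in late liver. Every mid and late liver library lay below the lowest control, in the TG and in the XC series alike. The share of all genes that separate from the controls was not counted, here or for the other members. Such separation is therefore given as a description. The log2 fold change was -0.58 (SE 0.175, adjusted p = 0.0377) in mid and -0.52 (SE 0.200, adjusted p = 0.0656) in late liver, and -0.55 (SE 0.156, adjusted p = 0.0203) over both. Its transcripts average 4149 bases, in the longest class. With the length trend equalised the difference over mid and late liver was -0.23 (95% interval -0.56 to 0.10, adjusted p = 0.214), and it was not called. The call in mid liver was lost without any 1 of its 6 libraries (adjusted p = 0.060 to 0.130). The call over both was lost without control 1 (adjusted p = 0.080), control 2 (0.0811), mid liver 3 (0.0535), late liver 1 (0.073) or late liver 2 (0.0748).

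Insig1 encodes an anchor that holds SCAP and SREBP in the endoplasmic reticulum, and is itself a well known SREBP target. It lies on chr5:28071363-28078662, plus strand. It measured 28.4, 41.1 and 27.9 CPM in the controls (mean 32.5 ± 7.48, SD, n = 3), 17.9, 20.8 and 28.9 CPM in mid liver and 16.3 and 19.6 CPM in late liver. Late liver did not overlap the controls, whereas mid liver 3 lay within their range. Insig1 fell in late liver, to 0.566 of control (log2 fold change -0.82, SE 0.240, adjusted p = 0.0289). In mid liver the log2 fold change was -0.55 (adjusted p = 0.0692, and 0.0871 with the length trend equalised), and over mid and late liver -0.69 (SE 0.185, adjusted p = 0.0168). Equalising the length trend left -0.77 in late liver (adjusted p = 0.0381) and -0.64 over both (adjusted p = 0.0229). The call over both was lost without control 1 (adjusted p = 0.0927), control 2 (0.0734), late liver 1 (0.0541) or late liver 2 (0.0697), and that in late liver without control 1 (0.110), control 2 (0.0755), late liver 1 (0.148) or late liver 2 (0.177).

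Hmgcs1 is the cytosolic HMG-CoA synthase, an early enzyme of the mevalonate pathway. It lies on chr13:119690379-119708260, plus strand. It measured 41.3, 71.6 and 58.3 CPM in the controls (mean 57.1 ± 15.2, SD, n = 3), 19.5, 39.0 and 50.4 CPM in mid liver and 18.2 and 39.8 CPM in late liver. The lowest values were those of the TG series in both groups. Within that series the mid and late libraries lay below control 1, and within the XC series the others lay below controls 2 and 3, although mid liver 3 exceeded control 1. Hmgcs1 fell to 0.598 of control in mid (log2 fold change -0.74, SE 0.189, adjusted p = 0.0258) and to 0.529 in late liver (-0.92, SE 0.216, adjusted p = 0.0163), and its change over both was -0.83 (SE 0.167, adjusted p = 0.00738). With the length trend equalised these were -0.59 (adjusted p = 0.0376), -0.72 (adjusted p = 0.0287) and -0.66 (adjusted p = 0.0127). Over mid and late liver together the call was lost on leaving out control 1, the TG control (adjusted p = 0.0593), and on no other single library. In late liver alone it was lost without control 1 (adjusted p = 0.079), late liver 1 (0.138) or late liver 2 (0.0842), and in mid liver without any 1 of its 3 libraries or of controls 1 and 2 (0.0623 to 0.119).

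Hmgcs1 was the member with the most calls when the processing was varied. It had the same direction in all 21 alternatives run for mid and late liver together and passed in 17, against 15 for Insig1, 12 for Srebf2 and 5 for Cyp51. Against the day 18 leukemia-free library as the only control, chosen after seeing the data, no member was called in mid and late liver and Hmgcs1 had -0.51 (adjusted p = 0.245). In the XC series alone it had -0.65 (adjusted p = 0.106), and there no gene of the 13307 tested passed in any of the 3 comparisons.

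**Figure D3:**
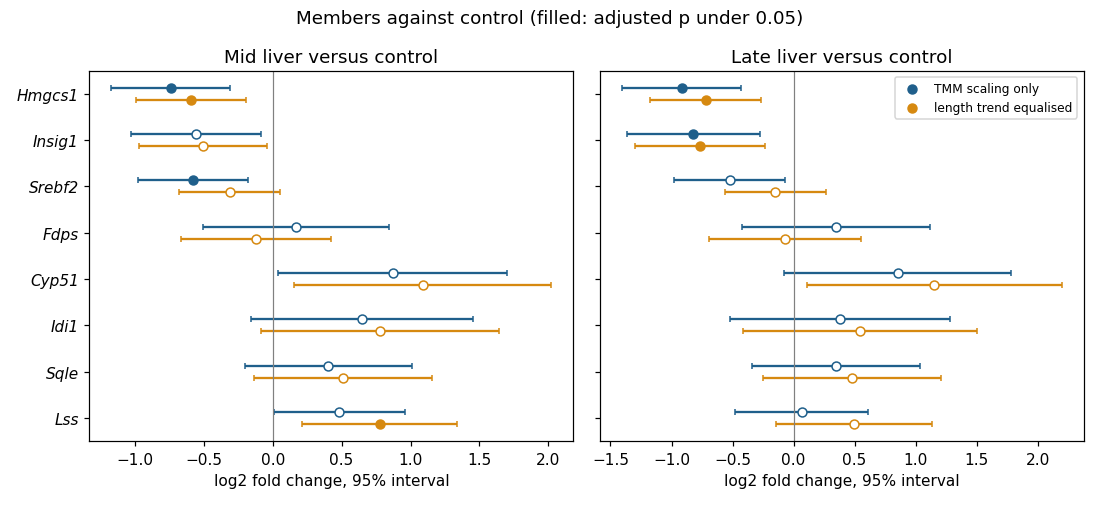
Log2 fold change against control (x axis, with 95% intervals) of each member (y axis) in mid liver (left) and late liver (right), with TMM scaling only (blue) and with the length trend equalised (orange). Filled points have an adjusted p under 0.05. Hmgcs1 is filled in both fits on both sides, and Srebf2 only in blue in mid liver.

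Idi1 and Fdps act in the middle of the pathway, where Idi1 interconverts the C5 isoprenoids and Fdps joins them into farnesyl diphosphate. Idi1 (chr13:8885501-8892451, plus strand) measured 21.5, 27.0 and 22.4 CPM in the controls, 33.2, 30.0 and 49.5 CPM in mid and 28.3 and 32.6 CPM in late liver. All 5 mid and late libraries were above all 3 controls, in both series, a separation not counted over all genes. The difference was not called, at 0.65 in mid (adjusted p = 0.177) and 0.38 in late liver (adjusted p = 0.457). Nor was it with the length trend equalised, at 0.78 and 0.55 (adjusted p = 0.141 and 0.326). Fdps (chr3:89093588-89101959, minus strand) was 70.5, 49.4 and 47.8 CPM in the controls, 135, 33.4 and 55.1 CPM in mid and 157 and 44.7 CPM in late liver. Its high values were the TG liver libraries alone, and within the XC series mid and late liver averaged 0.13 lower than control on the log2 scale. Fdps has the shortest transcripts of the 8 (1291 bases), and the fitted difference over mid and late liver moved from 0.26 to -0.09 (95% interval -0.59 to 0.40) once the length trend was equalised.

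Sqle, Lss and Cyp51 act in turn on the sterol arm: squalene epoxidase, lanosterol synthase and lanosterol 14-demethylase. Cyp51 (chr5:4081145-4104746, minus strand) measured 20.6, 29.8 and 28.0 CPM in the controls (mean 26.1 ± 4.86, SD, n = 3), 39.1, 38.2 and 67.5 CPM in mid and 45.7 and 45.1 CPM in late liver. Its 5 mid and late liver libraries lay above every control in both series, again a separation not counted over all genes. The log2 fold change over both was 0.86 (SE 0.339, 95% interval 0.09 to 1.63), with an unadjusted p of 0.0328 and an adjusted p of 0.0641. It passed with DESeq2 (0.89, adjusted p = 0.0258) and with the length trend equalised (SE 0.379, adjusted p = 0.0438), and the log2 fold change was positive in all 21 alternatives, from 0.71 upward. No filter on low counts (adjusted p = 0.00262), the model of 14 libraries (0.0474) and only the groups compared (0.00933) also gave a call. Cyp51 overlaps Akap9 on the opposite strand over 166 of its 4415 exonic bases, and without stranded counting the reads of that stretch cannot be told apart. Akap9 went the other way, from 121 to 139 CPM in the controls to 31.4 to 93.0 CPM in mid and late liver.

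Sqle (chr15:59315077-59331192, plus strand) had 18.1, 30.9 and 25.2 CPM in the controls, 30.5, 28.3 and 39.0 CPM in mid and 30.1 and 30.7 CPM in late liver. These ranges overlapped, and the log2 fold change over both was 0.38 (95% interval -0.18 to 0.93, adjusted p = 0.229), and 0.49 (adjusted p = 0.153) with the length trend equalised. Lss (chr10:76531588-76557138, plus strand) varied least among the controls, at 22.9, 21.8 and 22.5 CPM. It was above them in mid liver (33.0, 27.2 and 35.1 CPM) and on both sides of them in late liver (30.1 and 19.5 CPM). The mid liver difference of Lss was 0.48 (95% interval 0.01 to 0.96, adjusted p = 0.104), and 0.78 (adjusted p = 0.0464) with the length trend equalised.

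Hepatocyte RNA was lowest among the mid and late liver libraries in mid liver 3, with 6.17 CPM over the 19 genes. That library had the highest Cyp51, Idi1, Sqle and Lss of the 5 (67.5, 49.5, 39.0 and 35.1 CPM). Mid liver 2, the next lowest in hepatocyte RNA at 40.1 CPM, had the lowest Cyp51 and Sqle of the 5 (38.2 and 28.3 CPM). Mid liver 1, with 347 CPM of those genes, was second to mid liver 3 in Idi1 and Lss (33.2 and 33.0 CPM). These members thus followed no steady order with hepatocyte RNA. Late liver 1, with 618 CPM of those genes, had the lowest Hmgcs1, Insig1 and Srebf2. It was also the TG library lowest in long transcripts (-0.93 in the longest class). Hepatocyte RNA, series and length trend cannot be told apart in that library. Cyp7a1, the rate-limiting enzyme of bile acid synthesis in hepatocytes, was at 0 to 1.93 CPM in every library. Against control, the 2 mid liver libraries with under 100 CPM of hepatocyte genes, an alternative chosen after seeing the data, gave -0.57 for Hmgcs1, -0.51 for Insig1, -0.64 for Srebf2 and 0.84 for Cyp51. None was called there (adjusted p = 0.182 to 0.313), nor was any of the 13534 genes tested.

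At day 7 the 2 early liver libraries differed from each other. Cyp51 was 51.9 and 18.6 CPM, Idi1 41.7 and 14.8 CPM, Sqle 36.4 and 19.4 CPM and Lss 35.4 and 24.9 CPM. Hmgcs1 (48.0 and 50.1 CPM) and Insig1 (25.4 and 24.1 CPM) were nearly equal between them, and Srebf2 was lower in the first (240 and 318 CPM). The first library, high in the sterol arm, also held more of the 8 proliferation genes, including Mki67, at 754 CPM against 90.3 CPM in the second and 80.6 to 124 CPM in the controls. The 5 activation genes, including Cd44, split the same 2 libraries, at 1193 and 224 CPM. Elsewhere the proliferation genes summed to 158 and 76.0 CPM in early spleen, 647 CPM in mid spleen and 933 to 2446 CPM in mid and late liver. The undivided library held 114 CPM, a control level, although its Cyp51, Idi1 and Sqle were above all controls. The part of either list in the members' values was not tested. Early liver against control gave no call among the members with edgeR, where 0% of genes were called. At an unadjusted p under 0.05 in edgeR stood 1 of 8 members and 1497 of all 14616 genes tested. That member was Hmgcs1, at -0.53 (95% interval -1.03 to -0.02, adjusted p = 0.475). DESeq2 called 0 of 8 members and 2.40% of genes.

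In the day 7 spleen of leukemia-bearing mice no member was called. Early spleen against control gave 0 of 8 with edgeR, with 0% of 15465 genes called. At an unadjusted p under 0.05 in edgeR stood 0 members and 972 of all genes. DESeq2 called 0 of 8 members and 0.0711% of genes. Where so few genes are called, 0 of 8 says little about the members. The 2 early spleen libraries had 62.8 and 49.6 CPM of Hmgcs1 and 33.9 and 28.0 CPM of Cyp51, values that overlapped the controls. Early liver against early spleen, both in the XC series, gave 0 of 8 with both tools. Of all genes 0% were called by edgeR and 0.394% by DESeq2. At an unadjusted p under 0.05 in edgeR stood 0 members and 1395 of 15465 genes. The interval of that comparison for Hmgcs1 was -0.71 to 0.31 and for Cyp51 -0.75 to 1.13. The single mid spleen library had 66.5 CPM of Hmgcs1, above all 5 mid and late liver libraries, and 45.6 CPM of Cyp51, among them. Mid liver against it gave 0 of 8 with both tools, 0.00647% of genes called by edgeR and 1 member at an unadjusted p under 0.05. That member was again Hmgcs1, at -0.64 (95% interval -1.23 to -0.06, adjusted p = 0.711 in edgeR).

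The undivided cells shared day 18 with late liver 1, but were taken from the spleen, so division and organ cannot be told apart here. Hmgcs1 was 66.7 CPM, Insig1 28.8 CPM and Srebf2 309 CPM in that library, each within the control range and above both late liver libraries. Cyp51 was 42.1 CPM, Idi1 31.9 CPM and Sqle 36.5 CPM, each above all 3 controls. The 1 undivided library gives no spread of its own, so only log2 fold changes are given here. Undivided against control ran from -0.29 to 0.585 over the members. The median was 0.315, with -0.015 over all genes tested. Late liver against undivided ran from -0.83 (Hmgcs1) to 0.268 over the members. The median was -0.22, with 0.014 over all genes tested. Late against mid liver called 0 of 8 by both tools, with 0% of genes called by edgeR and 0.233% by DESeq2. At an unadjusted p under 0.05 in edgeR stood 0 members and 783 of 14616 genes. The intervals of that comparison ran from -0.66 to 0.31 for Hmgcs1 and from -0.96 to 0.93 for Cyp51.

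Over the 14 libraries the members fell into blocks that did not follow their order in the pathway. Cyp51 went with Idi1 (Pearson r = 0.93, Spearman rho = 0.88) and with Sqle (r = 0.90, rho = 0.78), and Sqle with Idi1 (r = 0.89, rho = 0.86). For each of these pairs the permutation p of r was 1e-05, the smallest that 100000 permutations can give. It was 7e-05 after adjustment over the 28 pairs, and that of rho was 0.0092 or less after adjustment. The permutations shuffled all 14 libraries freely, though these share groups, series and the length trend. The permutation p-values here are therefore too small to be read as a test of co-regulation. Other pairs of genes were not compared. Hmgcs1 went with Insig1 (r = 0.89, rho = 0.88, adjusted permutation p = 7e-05 and 0.00098) and with Srebf2 (r = 0.88, rho = 0.82, adjusted permutation p = 0.00017 and 0.0034). Between the blocks, Hmgcs1 and Cyp51 had r = -0.15 (rho = -0.13, adjusted permutation p = 0.74 and 0.86), although both are enzymes of 1 pathway.

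The 5 positive relations kept their sign without the 2 libraries farthest from the median of the first gene, whereas Hmgcs1 with Cyp51 went to 0.04. Pearson r of the 5 was then 0.86 for Idi1 with Cyp51, 0.79 for Sqle with Cyp51, 0.87 for Sqle with Idi1, 0.83 for Hmgcs1 with Insig1 and 0.79 for Hmgcs1 with Srebf2. In the 11 XC libraries r was 0.96, 0.90, 0.94, 0.91 and 0.78 in the same order, while the TG series has 3 libraries, too few for a value. Insig1 with Srebf2, the remaining pair within a block, was weaker (r = 0.815, rho = 0.675, adjusted permutation p = 0.0015 and 0.045). Its r was 0.645 without mid liver 1 and late liver 1, and 0.675 (rho = 0.518) in the XC series. There Fdps with Sqle, a pair outside the blocks, had r = 0.785. The libraries share groups and the length trend, so these values describe how the members varied here. Fdps with Hmgcs1 changed sign, from r = -0.71 (rho = -0.08, adjusted permutation p = 0.039 and 0.88) over all 14 to 0.65 in the XC series, and the negative value rested on mid liver 1 and late liver 1.

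**Figure D4:**
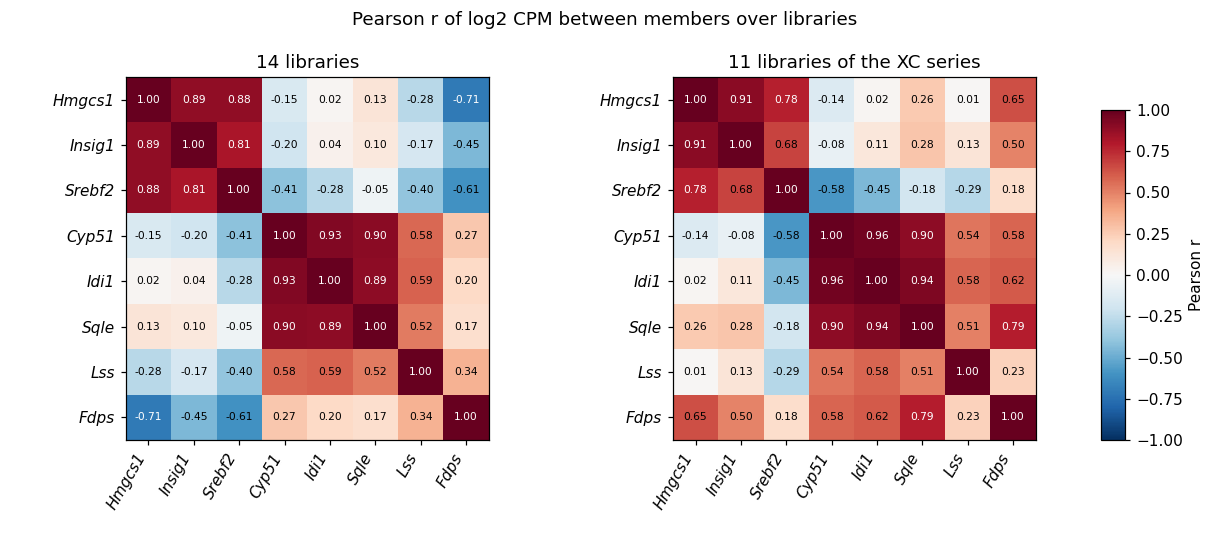
Pearson r of log2 CPM between each pair of members over 14 libraries (left) and over the 11 libraries of the XC series (right), in colour and as numbers. Hmgcs1, Insig1 and Srebf2 form one warm square and Cyp51, Idi1 and Sqle another in both, while Fdps with Hmgcs1 is blue on the left (-0.71) and warm on the right (0.65).

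Per transcript length, in TPM as deposited and summed per gene, Srebf2 was the most abundant member, with a median of 83.4 TPM over the 14 libraries. It was followed by Fdps (42.4 TPM), Hmgcs1 (20.4 TPM), Cyp51 (14.9 TPM), Insig1 (11.5 TPM), Idi1 (10.2 TPM), Sqle (10.1 TPM) and Lss (8.22 TPM). The ranges of neighbours in this order overlapped. Srebf2 ranged from 22.9 to 124 TPM and Hmgcs1 from 3.11 to 25.6 TPM. One transcript carried most of the estimated counts of each member but Srebf2, with a median share of 76.9% for Lss to 97.2% for Idi1. For Srebf2 the leading transcript had a median share of 50.9% and the next 36.0%.

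The pathway around the members was read from lists chosen by function, with values over mid and late liver unless stated. Outside the members 23 of 49 genes of these lists (46.9%) were called by edgeR, where 47.3% of all genes were, 23.5% higher and 23.8% lower. The lists as a whole thus held calls about as often as all genes, and their counts are a description. With the length trend equalised 27 of the 49 (55.1%) were called, beside 43.8% of all genes. Without control 1, in the XC series alone or against the day 18 control alone 0 of the 23 were. Without any other single library 15 to 20 of them were called. Of 20 cholesterol synthesis enzymes read here, 2 rose and 1 fell over mid and late liver, the one that fell being the member Hmgcs1. The risers were Pmvk, phosphomevalonate kinase (1.26, adjusted p = 0.00889), and Ebp, a sterol isomerase (0.74, adjusted p = 0.0107). Squalene synthase, Fdft1, rose in late liver alone (0.80, adjusted p = 0.0397). The median over the list was 0.26, with -0.05 over all genes tested. Pmvk and Ebp have short transcripts (1128 and 1449 bases), and with the length trend equalised they were at 0.85 and 0.45, still called (adjusted p = 0.0138 and 0.0246). In that fit 4 of 20 enzymes rose and 3 fell, Fdft1 and Cyp51 joining the risers, and Mvd and Msmo1 joining Hmgcs1.

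Among 7 SREBP regulators, 1 rose and 3 fell over mid and late liver, where 23.5% of all genes were called higher and 23.8% lower. Scap, the escort protein, rose by 0.43 (adjusted p = 0.0458), and Mbtps2, the site-2 protease, fell by 0.55 (adjusted p = 0.0351) beside Insig1 and Srebf2. Scap was called in 4 and Mbtps2 in 8 of 21 alternatives, and Scap in 0 of the 8 that left out a library. With the length trend equalised Mbtps2 kept most of its difference but just missed the threshold (-0.45, adjusted p = 0.0598), Srebf2 shrank to -0.23 as given above, and Srebf1 rose (0.46, adjusted p = 0.0478). Scap is a long transcript and had 0.74 there (adjusted p = 0.0113).

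Of 6 genes of sterol uptake and transport 3 rose and 3 fell, beside 23.5% of all genes higher and 23.8% lower. Npc2 (-1.17), Lipa (0.499 of control) and Npc1 (-0.63), which release cholesterol from lysosomes, fell, Npc1 not when the length trend was equalised (-0.25, adjusted p = 0.269). Npc1 was called in 1 of the 8 fits that left out a library. Tmem97 rose most (2.69, adjusted p = 0.00885), from 6.76 to 14.3 CPM in the controls to 32.2 to 147 CPM. The sterol carrier Stard4 rose by 1.04 (adjusted p = 0.00626) and the HDL receptor Scarb1 by 0.95 (adjusted p = 0.0154).

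Of 7 tested genes of sterol efflux and storage, 4 fell and 1 rose, beside 23.8% of all genes lower and 23.5% higher. Abca1, the cholesterol exporter and a macrophage gene as well, fell by 4.10 (SE 0.697, adjusted p = 0.00691). Mylip, a ubiquitin ligase gene induced by sterols, fell by 2.42, Nr1h3, the sterol sensor LXR alpha, by 2.17 and the exporter Abcg1 by 1.07. Soat1, which esterifies cholesterol for storage, rose by 0.58 (adjusted p = 0.0293), a call made in 2 of the 8 fits that left out a library, as Abcg1 was in 3 and Nr1h3 in 5. The macrophage list was high in controls 1 and 2, as given above, and Nr1h3 turned positive (0.36, adjusted p = 0.679) against the day 18 control alone, the control with the lowest macrophage sum. Abca1, Abcg1 and Mylip stayed negative in all 21 alternatives. Abcg1 was not called with the length trend equalised (adjusted p = 0.130).

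Of 8 tested fatty acid synthesis genes, the branch that SREBP1 drives, 3 rose and 2 fell. Beside this list and the isoprenoid branch below, 23.5% of all genes were called higher and 23.8% lower. Scd2 rose by 1.62, Fasn by 0.94 and Acaca by 0.74, and Acss2 fell by 2.54 and Elovl6 by 1.21 (adjusted p = 0.00617 to 0.0297). Fasn was called in 3 of the 8 fits that left out a library. Equalising the length trend added Acly and Fads1 to the risers and removed none of these calls over mid and late liver. In the isoprenoid branch of 9 genes, Dhdds rose by 0.90, and Rabggta and Ggps1 fell by 0.93 and 0.54 (adjusted p = 0.00643 to 0.0123). These calls held with the length trend equalised, which added Pggt1b (0.54, adjusted p = 0.0289) to the risers.

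**Figure D5:**
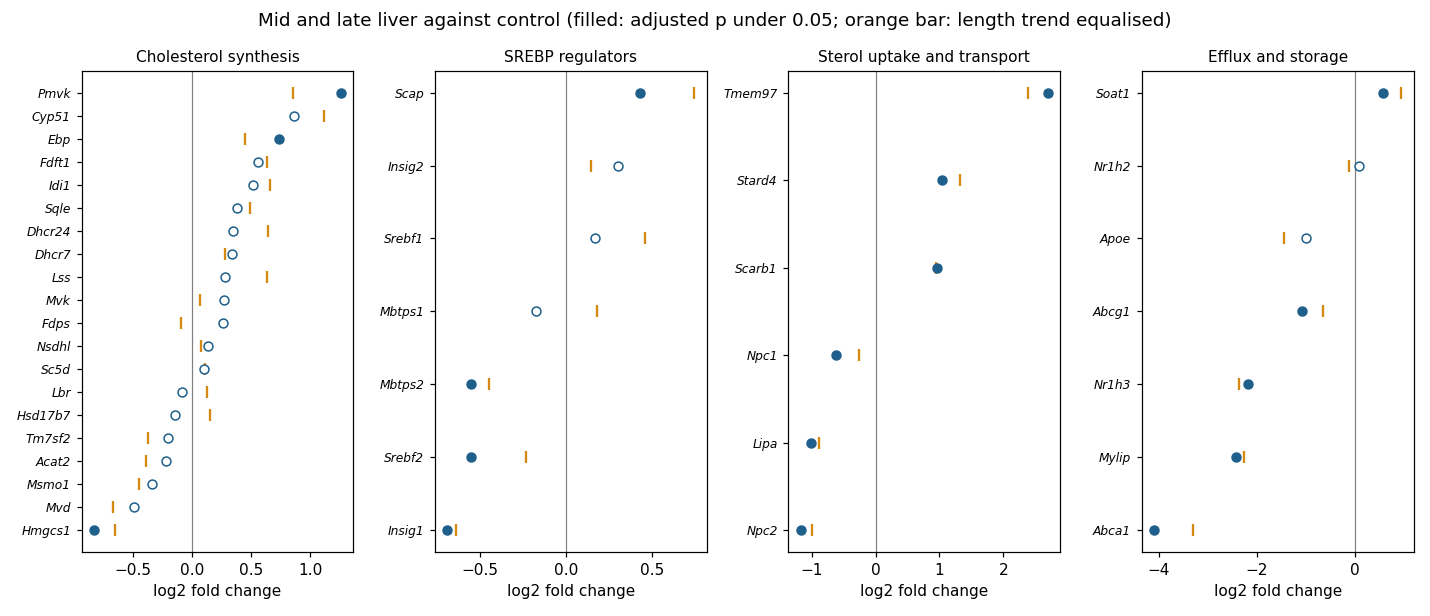
Log2 fold change of mid and late liver against control (x axis) for the genes (y axis) read here of cholesterol synthesis, SREBP regulation, sterol uptake and transport, and efflux and storage. Filled points have an adjusted p under 0.05, and orange bars give the value with the length trend equalised. Hmgcs1 lies lowest among the enzymes at -0.83, and Tmem97 highest among the uptake genes at 2.69.

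Likeness was measured as Pearson r, over the 14 libraries, with the mean z-score of the 8 members, among 5841 genes with a mean log2 CPM of at least 5 outside all lists. The highest were Coa5 (0.71), Mis12 (0.70), Furin (0.68), Khdrbs1 (0.68), Pdha1 (0.67), Mtpn (0.64), Kcnab2 (0.63), Ndufs1 (0.62), Cstf3 (0.62) and Ipo7 (0.61). The lowest were Slc38a6 (-0.76), Rab3gap1 (-0.76), Ifngr1 (-0.73), Tspan14 (-0.67) and Sirt5 (-0.66). Since the members split into blocks, this mean is like no single member, and the genes are given as a description only.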

How the data were processed

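RNA was measured in 26 deposited runs, which the sample titles place in 15 libraries (11 of the 14 libraries compared had a second run). The authors ran kallisto on GRCm38 transcripts and deposited estimated counts and TPM per transcript; bcl2fastq, kallisto and mm10 are named in the submitters' processing notes, with no version given in the sources used here. Estimated counts were summed per gene over GENCODE vM21 (116710 of 118783 transcripts assigned, 99.0% to 99.29% of counts) and over the runs of a library, then rounded to whole numbers. TPM, as the authors deposited it, was summed per gene. Depth was 22918996 to 71358287 estimated counts.

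A gene was tested when 6 or more libraries each held 10 or more counts, with the quasi-likelihood test of edgeR 4.0.16 (TMM, robust, terms for group and for the title series, taken as the batches the study describes; two-sided, Benjamini-Hochberg at 0.05 over all genes tested) in R 4.3.3, tested on simulated data. The study used DESeq2; DESeq2 1.42.0 is an alternative here. Liver and undivided cells were compared with control in a fit of 11 libraries, and spleen in a fit of 14. CPM values are scaled by TMM, and log2 CPM carries a prior count of 2. In the length fit, a lowess curve of each library's deviation on log2 transcript length was used as an offset. Pairs of members were tested by permutation (two-sided) of the 14 libraries, without regard to group or series. Tables used Python 3.11.15. All 8 members are named; of the lists, the genes called in late, or in mid and late, liver against control and the gene farthest from 0. The members, lists and length fit were chosen with earlier results of these data known. No numbers pair the replicates of different groups. Results for some genes of the pathway lists are not reported here, and list counts leave them out.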

Additional observations from a re-analysis of the deposited data

Results flagged for a closer look

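The naive library made by oligo-dT priming stood above all 3 control libraries for 3 members, in data that no comparison used. Insig1 was 69.955 CPM there, against 27.9 to 41.1 CPM in the controls. Idi1 was 29.4416 CPM, against 21.5 to 27.0 CPM, and Lss 23.9803 CPM, against 21.8 to 22.9 CPM. Sqle (15.9 CPM, against 18.1 to 30.9 CPM) and Fdps (39.3 CPM, against 47.8 to 70.5 CPM) lay below all 3 controls there. This is a single library of another preparation, so the differences carry no test.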

How the results depend on the processing

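Counts of members called are given for late, mid, and mid and late liver against control in that order (2, 2 and 3 as reported). They were 0, 0 and 1 without the series term (1, 0 and 4 members at an unadjusted p under 0.05; 18.5%, 9.50% and 29.1% of all genes called) and 0, 0 and 0 in the XC series alone (1, 2 and 3 unadjusted). With the day 18 control alone they were 0, 0 and 0 (none unadjusted). With only the groups compared they were 4 and 4 in late and mid liver (44.9% and 44.0% of genes). In mid liver 1 was called with filterByExpr (22.7% of genes), the 14-library model (29.3%) and day 0 controls only (16.5%), and 0 (2 unadjusted) with the low-hepatocyte liver libraries. Leaving out 1 library gave 0 to 2, 0 to 1 and 0 to 3. Without control 1 the 3 counts were 0, where 1.05%, 0.00705% and 0.0423% of all genes were called. Without late liver 1 or 2 the late count was 0, and without control 2 the counts were 1, 0 and 1 (23.8%, 0.00701% and 33.2% of genes). DESeq2, its size factors, no count filter, first runs, TPM-scaled counts and the equalised length trend stayed within 1.5 times. These counts hold calls of either direction, whereas the reported calls were all lower. Without the count filter 1 call in each of the 3 comparisons was higher. With DESeq2 1 call over mid and late liver was higher, and with only the groups compared 1 in late and 2 in mid liver were. The other 7 comparisons had 0 members called under every alternative run, although in early liver 5.02% of genes were called without the count filter and 13.2% without early liver 2, and in late liver against undivided 12.8% with DESeq2 and 8.51% without the filter. Of the other 5, early liver against early spleen reached 6.34% without early liver 2, and the rest at most 2.30%. No called member reversed. The causes were not tested. No paired analysis was possible because the labels give the groups no shared replicate numbers. Equalising the length trend, the day 18 control and the low-hepatocyte libraries were chosen after seeing the data.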
